A study of Mus musculus with 29 samples.

Results

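The genes described here are 10 genes of the secreted matrix, Dcn (decorin), Bgn (biglycan), Lum (lumican), Fmod (fibromodulin), Ogn (osteoglycin), Aspn (asporin), Prelp, Vcan (versican), Hspg2 (perlecan) and Ptn (pleiotrophin). They were taken by symbol from the 22537 genes of the count table, and all 10 were found and passed the filter on low counts in every comparison. RNA of the whole tibialis anterior (TA), the muscle at the front of the shin, was sequenced from untreated male C57BL/6 mice of an aging colony that had been through tests of physical function. A first run held 7 mice at 6m (6 months of age) and 7 at 24m, and a second run held 8 mice at 28m, given as 28 months or older in the labels, together with libraries prepared anew from those 7 young mice, so that 22 mice gave 29 libraries. The design text of the series gives the numbers at 24m and 28m the other way round, and the labels of the single samples were used. Each old group was compared with the 6m libraries of its own run, so the same 7 young mice stand on one side of both comparisons.

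Proteoglycans are proteins that carry long sulfated sugar chains, and much of the matrix between and around muscle fibres is built from collagens and proteoglycans. The small leucine-rich proteoglycans, to which decorin, biglycan, lumican, fibromodulin, osteoglycin, asporin and Prelp belong, bind collagen fibrils and some of them bind growth factors such as TGF-beta; they are made mainly by fibroblasts and tendon cells. Versican is a large chondroitin sulfate proteoglycan that binds hyaluronan, and perlecan is a large heparan sulfate proteoglycan of the basement membrane that surrounds muscle fibres and vessels. Pleiotrophin is not a proteoglycan but a secreted heparin-binding growth factor that binds the sugar chains of proteoglycans and proteoglycan-type receptors.

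Levels are given as CPM, the counts of a gene relative to all counts of its library after TMM scaling (a trimmed mean of log ratios between libraries). Fold changes, old over 6m on a log2 scale, and their p-values come from the quasi-likelihood test of edgeR, adjusted by Benjamini-Hochberg over every gene tested. A gene is called changed at an adjusted p under 0.05. Total counts per library were between 17633475 and 33499162, so that even the lowest gene, Ptn, rested on 12 to 82 counts per library. In whole muscle, fewer cells of a type and less RNA per cell cannot be told apart.

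Some libraries stood apart. The mouse numbered 2 at 6m had the highest level of 7 of the 10 genes in the first run and of 9 in the second, and the mouse numbered 2 at 24m had the highest level of 7. In the second run the summed level of 10 fibroblast markers was 1810 CPM in 6m mouse 2 and at most 739 CPM in the other 6m mice, and the sum of 10 tendon markers was 1037 CPM against at most 495 CPM. The first-run library of 6m mouse 4 differed from the second library of the same mouse with an SD across genes of 0.62 on the log2 scale, against 0.24 to 0.28 for the other 6 mice. The 24m mouse 4 had the highest adipocyte marker sum of its group, 582 CPM, and 28m mouse 7 the highest macrophage sum of its group, 653 CPM against at most 119 CPM in the other 28m mice.

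Several of the genes lie side by side in the genome (GRCm38, GENCODE annotation). Dcn (chr10:97479609-97518143, plus strand) lies next to Lum (chr10:97565128-97572703, plus strand), Aspn (chr13:49544443-49567565, plus strand) lies close to Ogn (chr13:49608046-49624501, plus strand), and Prelp (chr1:133910304-133921414, minus strand) lies close to Fmod (chr1:134037254-134048277, plus strand). Bgn lies at chrX:73483602-73495933 (plus strand), Vcan at chr13:89655312-89742509 (minus strand), Hspg2 at chr4:137468769-137570630 (plus strand) and Ptn at chr6:36714929-36810220 (minus strand). The annotated exons of Hspg2 cover 14307 bases and those of Vcan 14462 bases, against 2354 to 6099 bases in the other 8 genes. Of the exonic bases of Prelp, 9.7% are shared with a gene on the other strand, Gm15851, and whether reads were counted by strand is not stated, so some counts of Prelp may belong to that gene.

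The promoter windows of 6 of the genes are shown: the 4 genes called lower at 28m (Hspg2, Vcan, Prelp and Ogn), and for comparison Aspn, a genome neighbour of Ogn, and Bgn, which did not pass the test. A difference between these sets was not tested, and the calls of Vcan and Ogn were lost in some of the alternative fits. Each window is the reference sequence of RefSeq (GRCm38.p6) from 250 bases before to 50 bases after the annotated start, read along the gene. Such windows were matched for 8 of the 10 genes and not for Dcn and Lum. Capitals mark matches on either strand to 4 short motifs, which may overlap. These are the GC box, searched for as GGGCGG, the CCAAT box, searched for by the letters of its name, the TATA box, searched for as TATAAA, and the AP-1 site, searched for as TGANTCA.
Hspg2 (chr4:137468553-137468852, plus strand): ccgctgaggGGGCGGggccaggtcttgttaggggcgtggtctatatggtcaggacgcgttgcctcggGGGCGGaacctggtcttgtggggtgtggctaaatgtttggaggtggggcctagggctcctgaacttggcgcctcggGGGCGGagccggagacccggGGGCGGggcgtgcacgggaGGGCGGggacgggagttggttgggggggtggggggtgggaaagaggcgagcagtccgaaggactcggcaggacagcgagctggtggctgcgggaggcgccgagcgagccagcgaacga
Vcan (chr13:89742463-89742762, minus strand): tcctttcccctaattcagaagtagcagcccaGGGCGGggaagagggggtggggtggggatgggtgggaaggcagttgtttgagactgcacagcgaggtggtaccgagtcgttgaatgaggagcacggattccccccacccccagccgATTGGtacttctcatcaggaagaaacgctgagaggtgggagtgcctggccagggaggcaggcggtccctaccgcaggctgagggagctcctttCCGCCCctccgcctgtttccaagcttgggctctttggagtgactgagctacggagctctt
Prelp (chr1:133921352-133921651, minus strand): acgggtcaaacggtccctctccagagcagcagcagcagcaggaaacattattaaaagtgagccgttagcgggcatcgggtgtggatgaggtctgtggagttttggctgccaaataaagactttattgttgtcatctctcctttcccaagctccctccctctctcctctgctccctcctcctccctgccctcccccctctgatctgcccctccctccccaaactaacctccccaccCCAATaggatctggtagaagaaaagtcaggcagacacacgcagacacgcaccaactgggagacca
Ogn (chr13:49607765-49608064, plus strand): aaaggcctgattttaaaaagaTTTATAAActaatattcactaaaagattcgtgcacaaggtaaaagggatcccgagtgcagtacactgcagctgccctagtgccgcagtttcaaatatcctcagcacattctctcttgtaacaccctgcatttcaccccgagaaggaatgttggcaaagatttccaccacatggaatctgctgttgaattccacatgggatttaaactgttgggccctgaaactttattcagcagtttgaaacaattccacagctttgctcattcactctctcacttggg
Aspn (chr13:49544193-49544492, plus strand): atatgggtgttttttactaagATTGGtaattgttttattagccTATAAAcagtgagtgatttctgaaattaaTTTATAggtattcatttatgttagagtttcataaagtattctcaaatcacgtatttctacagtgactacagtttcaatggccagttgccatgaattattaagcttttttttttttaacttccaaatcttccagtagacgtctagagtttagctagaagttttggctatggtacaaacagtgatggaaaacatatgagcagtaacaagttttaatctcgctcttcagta
Bgn (chrX:73483351-73483650, plus strand): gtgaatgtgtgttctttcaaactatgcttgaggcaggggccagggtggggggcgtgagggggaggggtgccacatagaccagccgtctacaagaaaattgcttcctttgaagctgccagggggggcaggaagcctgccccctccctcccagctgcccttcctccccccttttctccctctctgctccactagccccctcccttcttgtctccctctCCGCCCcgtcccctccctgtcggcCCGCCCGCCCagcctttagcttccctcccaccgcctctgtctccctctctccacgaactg

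The windows differ widely in base composition. G and C make up 70.3% of the Hspg2 window, which holds 5 GC boxes, 63.7% of the Bgn window with 3 and 61.0% of the Vcan window with 2, and the median over all 32851 windows is 52.7%. At the other end is the Aspn window, with less G and C than all but 1.3% of windows, and the Ogn window has 42.3% G and C, each with 2 matches to the TATA box and no GC box. A GC box is found in 35.7% of all windows, a CCAAT box in 37.4%, a TATA box in 13.6% and the AP-1 site in 7.8%. Windows with GC boxes and windows without one were found among the genes called lower and among the others shown. A match describes the letters of the window and not a site in use.

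At 28m, 4 of the 10 genes were lower than at 6m and 0 were higher, where 22.9% of the 12994 genes tested were lower and 24.3% were higher. The 4 were perlecan, versican, Prelp and osteoglycin. For the first 3 of these the log2 fold change was also at or below -1, the size the study required of a DEG, which held for 3.37% of all genes tested. Decorin, biglycan, lumican and asporin had log2 fold changes between -0.15 and -0.06. The median log2 fold change of the 10 genes was -0.61 and that of all genes tested was 0.01. Many genes of all kinds were called lower, so the count of 4 is read against that background and was not tested as a group.

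**Figure D1:**
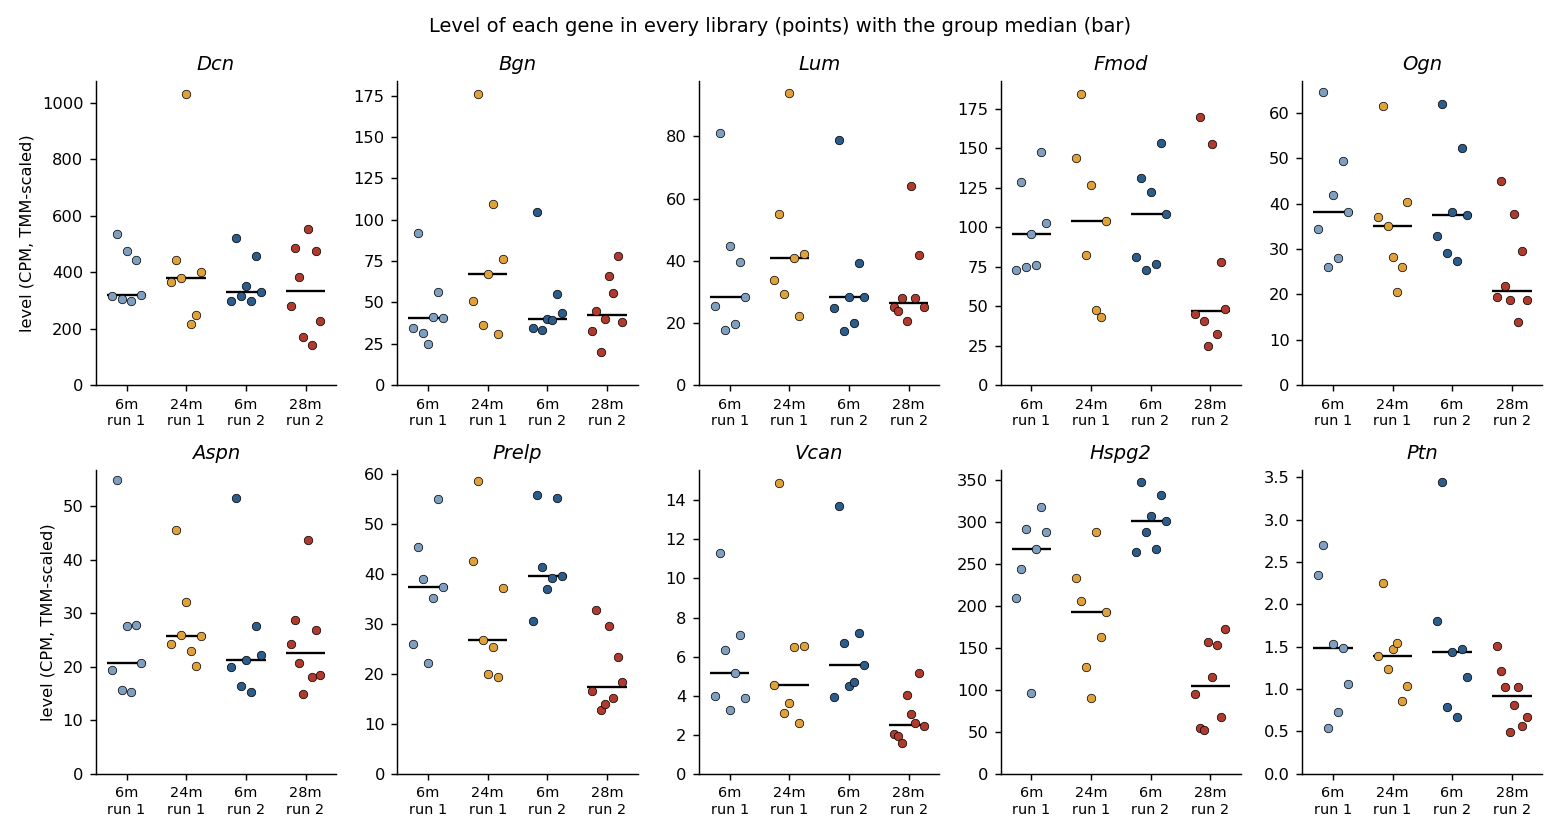
Level of each gene (vertical axis, CPM after TMM scaling, from 0) in every library by age group and run (horizontal axis); points are libraries and bars are group medians. Hspg2 is the gene whose 28m points, up to 173 CPM, all lie below the second-run 6m points, which start at 264 CPM, while Dcn, Bgn, Lum and Aspn overlap throughout and 6m mouse 2 is the high point of many panels.

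Hspg2 encodes perlecan, which anchors the laminin and collagen IV sheets of the basement membrane and binds growth factors through its heparan sulfate chains. In the second run its level lay between 264 and 348 CPM at 6m, with a median of 302 CPM, and between 52.0 and 173 CPM at 28m, with a median of 105 CPM. All 8 of the 28m mice lay below all 7 of the 6m mice, a separation seen downward for 6.18% of the genes tested. The mean fell from 302 ± 31.3 CPM (SD, n = 7) to 109 ± 48.5 CPM (SD, n = 8), a log2 fold change of -1.49 with a standard error of 0.24 (adjusted p = 0.000563 by edgeR). After a correction for exonic length and GC the log2 fold change was -0.94 (adjusted p = 0.000415 by edgeR). The spread was small at 6m, with a coefficient of variation of 10.4%, and larger at 28m at 44.7%. Within the 28m group the mice with the lowest values were mouse 3 at 52.0 CPM and mouse 2 at 55.0 CPM, and the highest was mouse 8 at 173 CPM.

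Vcan encodes versican, which forms large aggregates with hyaluronan in loose connective tissue. At 6m it lay between 3.93 and 13.7 CPM with a median of 5.59 CPM, and at 28m between 1.57 and 5.17 CPM with a median of 2.52 CPM. The groups overlapped, since 6 of 8 mice at 28m lay below all 6m mice, and all 8 lay below the 6m median. Its mean fell from 6.63 ± 3.35 CPM (SD, n = 7) to 2.85 ± 1.21 CPM (SD, n = 8), which gives a log2 fold change of -1.24 with a standard error of 0.29 (adjusted p = 0.00348 by edgeR). After a correction for exonic length and GC it was -0.75 and not past the threshold (adjusted p = 0.0536). Without 6m mouse 2, which carried the 13.7 CPM, the log2 fold change was -0.94 (adjusted p = 0.00799). The counts behind it were modest, 32 to 138 per library at 28m.

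Prelp encodes a leucine-rich repeat protein that binds both collagens and perlecan. It lay between 30.6 and 55.8 CPM at 6m, with a median of 39.5 CPM, and between 12.7 and 32.8 CPM at 28m, with a median of 17.4 CPM. Of the 8 mice at 28m, 7 lay below all 6m mice, and mouse 2 at 32.8 CPM was the exception. The mean fell from 42.7 ± 9.40 CPM (SD, n = 7) to 20.3 ± 7.52 CPM (SD, n = 8), a log2 fold change of -1.10 with a standard error of 0.20 (adjusted p = 0.000968 by edgeR). Leaving out each library in turn kept its log2 fold change between -1.22 and -1.01, past the threshold each time.

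Ogn encodes osteoglycin, a small leucine-rich protein that is also known as mimecan. Levels were 27.4 to 62.1 CPM at 6m (median 37.6 CPM) and 14.02 to 45.1 CPM at 28m (median 20.7 CPM), with 5 of 8 mice at 28m below all 6m mice. The log2 fold change was -0.67 with a standard error of 0.24 (adjusted p = 0.0315 by edgeR). This call was lost without the second-run library of 6m mouse 2 (-0.52, adjusted p = 0.0884), without that of 6m mouse 6 (-0.59, adjusted p = 0.0685), and without 28m mouse 1 (-0.62, adjusted p = 0.0573) or mouse 3 (-0.63, adjusted p = 0.0568). It was also lost with the first-run 6m libraries in place of the second (-0.68, adjusted p = 0.0563), and with these but without 6m mouse 4 (-0.68, adjusted p = 0.0550). The highest 28m values of Ogn and Prelp came from the same 2 mice, 2 and 5.

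Fmod encodes fibromodulin, which binds collagen fibrils and is abundant in tendon. Its 28m values fell far apart. Mice 2 and 5 had 170 and 153 CPM and the other 6 lay between 24.6 and 77.8 CPM, whereas the 6m mice lay between 72.6 and 153 CPM. The median was 108 CPM at 6m and 46.8 CPM at 28m, and 5 of 8 mice at 28m lay below all 6m mice while 1 lay above them all. With this spread the log2 fold change of -0.56 (standard error 0.37) did not pass the test (adjusted p = 0.221 by edgeR). Without mouse 2 at 28m it was -0.84 (adjusted p = 0.0557), without mouse 5 it was -0.79 (adjusted p = 0.0833), and limma-voom with all libraries gave -0.83 (adjusted p = 0.0715).

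The remaining small leucine-rich proteoglycans overlapped between the ages. Decorin, the most abundant of the 10 genes, lay between 296 and 520 CPM at 6m (median 330 CPM) and between 140 and 554 CPM at 28m (median 332 CPM). Its log2 fold change was -0.15 with a 95% interval from -0.70 to 0.41, so the medians were close while the 28m mice spread on both sides, 4 of them below all 6m mice and 1 above. Biglycan lay between 33.1 and 104 CPM at 6m and between 20.2 and 78.3 CPM at 28m (-0.12, interval -0.71 to 0.48). Lumican lay between 17.3 and 78.7 CPM at 6m and between 20.7 and 64.0 CPM at 28m (-0.11, interval -0.76 to 0.54), and asporin between 15.3 and 51.5 CPM and between 14.8 and 43.7 CPM (-0.06, interval -0.61 to 0.49). A fall of the size measured for osteoglycin (-0.67) lies within the intervals of Dcn, Bgn and Lum. In biglycan, lumican and asporin the sign rested on 6m mouse 2: without its library the log2 fold changes were 0.18, 0.26 and 0.24, none past the test.

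Ptn was the lowest of the genes, with 0.668 to 3.44 CPM at 6m (median 1.43 CPM) and 0.494 to 1.504 CPM at 28m (median 0.913 CPM). The log2 fold change was -0.79 with a standard error of 0.33, just short of the threshold (adjusted p = 0.0556 by edgeR). The call moved with the libraries used. It was past the threshold in 3 of the 15 fits that left out a library, and without 6m mouse 2, at 3.44 CPM, it was -0.44 (adjusted p = 0.199). DESeq2 gave -0.77 (adjusted p = 0.0497).

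**Figure D2:**
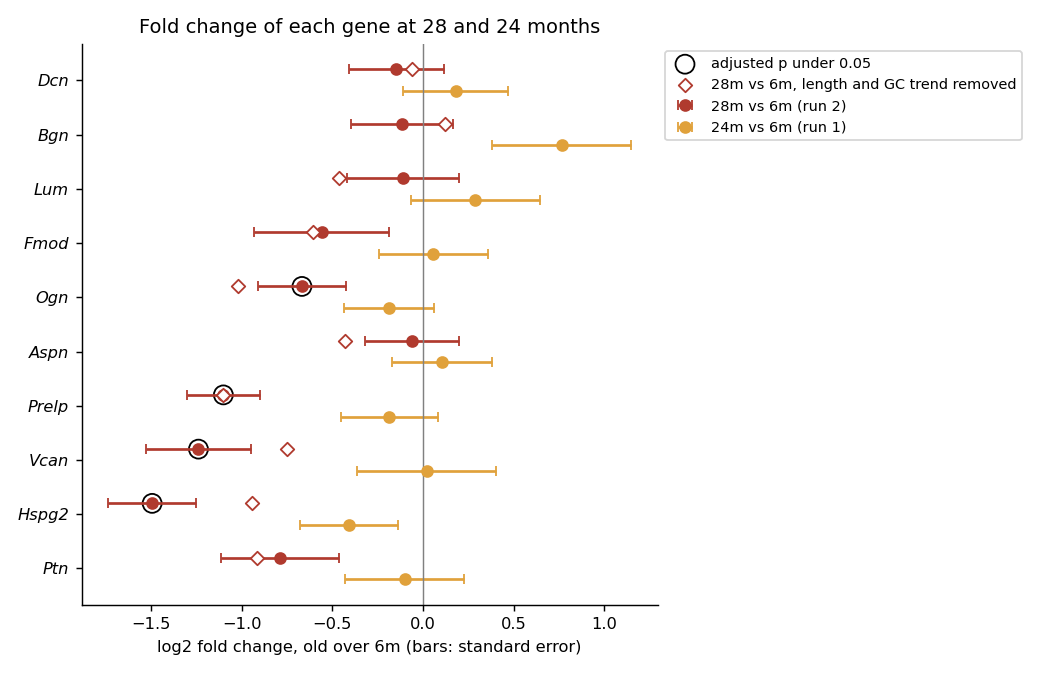
Log2 fold change of each gene (horizontal axis) at 28m in the second run and at 24m in the first, with standard errors as bars; rings mark an adjusted p under 0.05 and open diamonds the 28m value corrected for gene length and GC content. Only 28m values carry rings, at Ogn (-0.67), Prelp (-1.10), Vcan (-1.24) and Hspg2 (-1.49), and the diamonds of Hspg2 (-0.94) and Vcan (-0.75) lie nearer to 0 than the filled points.

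Gene length moved with the 28m fold changes. Among genes of known exonic length the Spearman correlation between length and log2 fold change was -0.54 at 28m (12886 genes) and -0.27 at 24m (12992 genes), given as a description across genes that are not independent, and Hspg2 and Vcan have the longest exonic sequence of the 10. A smooth trend of each library with exonic length and GC content was then taken out. After this correction perlecan stood at -0.94 (adjusted p = 0.000415), versican at -0.75 and no longer past the threshold (adjusted p = 0.0536), and Prelp at -1.10 (adjusted p = 0.000840). Osteoglycin was lower than before the correction, at -1.02 (adjusted p = 0.00175), as was pleiotrophin at -0.92, now past the threshold (adjusted p = 0.0306). Lumican at -0.46 (adjusted p = 0.201), asporin at -0.43 (adjusted p = 0.127) and fibromodulin at -0.61 (adjusted p = 0.196) also had lower values and did not pass the test. Decorin at -0.06 and biglycan at 0.12 had higher values than before it. The number of genes called lower was 4 of 10 in this fit too, with Ptn in place of Vcan, where 15.6% of all genes tested were lower. Perlecan, Prelp and osteoglycin were the genes called both with and without the correction. The part that length played in the fold changes was not tested beyond this.

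At 24m none of the 10 genes was called in either direction. Over all 13103 genes tested, 0.0229% were lower and 0.0611% higher, so few genes of any kind were called, and among the 10 no gene had an unadjusted p under 0.05 by edgeR, while DESeq2 and limma-voom called none of them either. Perlecan lay between 96.1 and 318 CPM at 6m (median 268 CPM) and between 90.8 and 289 CPM at 24m (median 194 CPM), a log2 fold change of -0.41 with a 95% interval from -0.99 to 0.17. The lowest perlecan value at each age came from the mouse numbered 4, and without both of these libraries the log2 fold change was -0.43 (adjusted p = 0.210). With the second-run 6m libraries in place of the first, perlecan was at -0.71 (adjusted p = 0.116) and Prelp, at -0.19 within the run, was at -0.39 (adjusted p = 0.321). Osteoglycin was at -0.19, pleiotrophin at -0.10 and versican at 0.02 within the run.

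Biglycan had the largest difference of the 10 at 24m. It lay between 24.6 and 91.9 CPM at 6m (median 40.4 CPM) and between 30.96 and 176 CPM at 24m (median 67.4 CPM). The groups overlapped, with 2 of 7 mice at 24m above all 6m mice, and the log2 fold change of 0.76 (standard error 0.39) did not pass the test (adjusted p = 0.440 by edgeR). Without 24m mouse 2, at 176 CPM, it was 0.42 (adjusted p = 0.607), and without the first-run library of 6m mouse 2 it was 1.04 (adjusted p = 0.347). The 24m mouse 2 also had the highest macrophage marker sum of its group, 540 CPM against at most 282 CPM in the others. Decorin ranged from 215 to 1033 CPM at 24m, the highest value being that of mouse 4, and its log2 fold change of 0.18 became -0.17 (adjusted p = 0.735) without that mouse.

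The difference between the 28m and 24m effects was tested in a fit over all 29 libraries. Of the 13455 genes in it 0% were called by edgeR, none of the 10 among them. At an unadjusted p under 0.05 there were 1611 genes, 3 of them among the 10, and DESeq2 called 2 genes, neither of the 10. Those below 0.05 unadjusted were perlecan (-1.08, adjusted p = 0.398), Prelp (-0.89, adjusted p = 0.399) and versican (-1.24, adjusted p = 0.399), each with the 28m effect below the 24m effect. With the mouse as a replicate block in limma-voom, which accounts for the 6m mice being in both runs, the adjusted p of perlecan was 0.106 and those of Prelp and versican 0.106 and 0.121. Without 24m mouse 4 perlecan passed the threshold (-1.19, adjusted p = 0.0390), with 1657 genes called in all. A difference between the ages is therefore not shown for any of the 10 in the fit over all libraries.

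**Figure D3:**
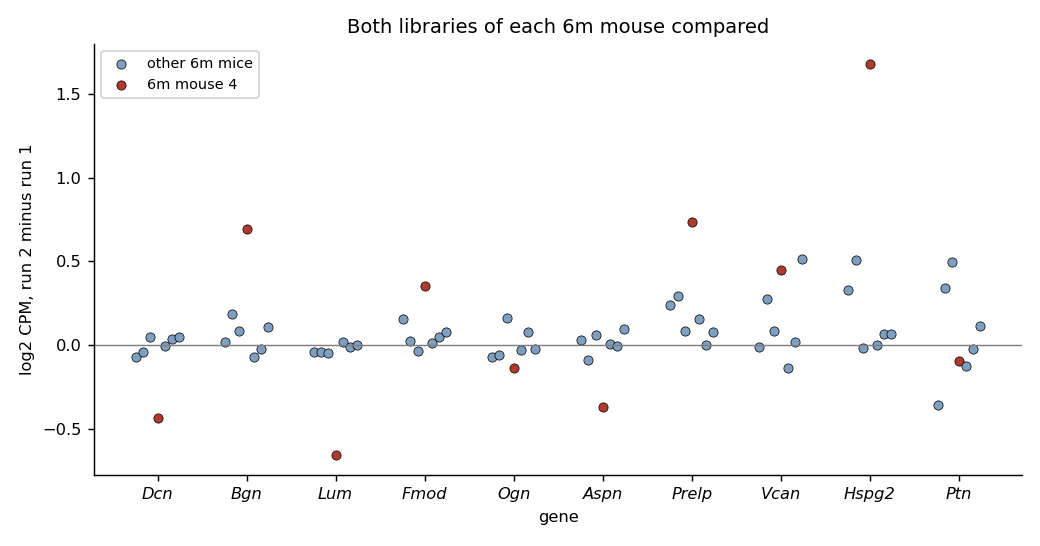
Difference in log2 CPM between the second-run and the first-run library of each 6m mouse (vertical axis), for each gene (horizontal axis); each point is a mouse and mouse 4 is drawn in a darker colour. Most points lie within 0.5 of 0, and mouse 4 stands out for Hspg2 at 1.68.

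Libraries prepared again from the same mice gave similar values for most genes. Of 12884 genes 0% were called between the 6m libraries of the runs by edgeR, 357 had an unadjusted p under 0.05, and DESeq2 called none. These fits did not pair the libraries of a mouse, so the spread between mice entered their errors and calls were hard to reach. With the mouse as a replicate block 0 genes were called as well. The 10 genes had log2 differences, second over first run, between -0.11 for lumican and 0.30 for perlecan, and with the mouse as a replicate block these became -0.10 and 0.37, again not past the threshold. The SD of the difference over the 7 mice was 0.10 on the log2 scale for osteoglycin, against 0.46 between mice of the first run, and 0.61 for perlecan. The value of perlecan rested on mouse 4, at 96.1 CPM in the first run and 308 CPM in the second. Without that mouse its SD was 0.21, below the 0.31 of pleiotrophin and the 0.23 of versican, and its difference between the runs was 0.16 by edgeR. In the same mouse Prelp and biglycan were higher in the second run by 0.73 and 0.69, and lumican and decorin differed by -0.66 and -0.43. With the first-run 6m libraries in place of the second, the 28m log2 fold change of perlecan was -1.19 (adjusted p = 0.0135), of Prelp -0.90 (adjusted p = 0.0152), of versican -1.07 (adjusted p = 0.0206) and of osteoglycin -0.68 (adjusted p = 0.0563).

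Per kilobase of exonic sequence, which allows levels of different genes to be compared, the order at 6m in the second run began with decorin at 62.8 ± 14.9 CPM per kilobase (SD, n = 7), fibromodulin at 32.2 ± 9.32 and perlecan at 21.1 ± 2.18. Each of these lay above the next gene in all 7 mice. Osteoglycin followed at 15.6, lumican at 13.8, Prelp at 11.8, asporin at 10.6 and biglycan at 8.20 CPM per kilobase. Within this middle stretch neighbours differed by less than their SDs. The order held in 6 of 7 mice for osteoglycin over lumican and for Prelp over asporin. It held in 5 for lumican over Prelp and in all 7 for asporin over biglycan. Versican at 0.458 and pleiotrophin at 0.447 were far lower and not distinguishable from each other, versican being the higher in 4 of 7 mice. At 28m decorin remained first at 58.1 ± 26.8 CPM per kilobase (SD, n = 8) and fibromodulin second at 22.3 ± 17.01. Perlecan stood in position 7 at 7.59 ± 3.39, close to biglycan at 7.72 ± 3.08, which was the higher of the pair in 3 of 8 mice. These levels carry no correction for the trend of the 28m fold changes with gene length. That correction took the log2 fold change of perlecan from -1.49 to -0.94, and the order after it was not tested. The 10 genes together made up 0.0775% to 0.143% of the counts of a 6m library of the second run and 0.0460% to 0.104% of a 28m library.

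**Figure D4:**
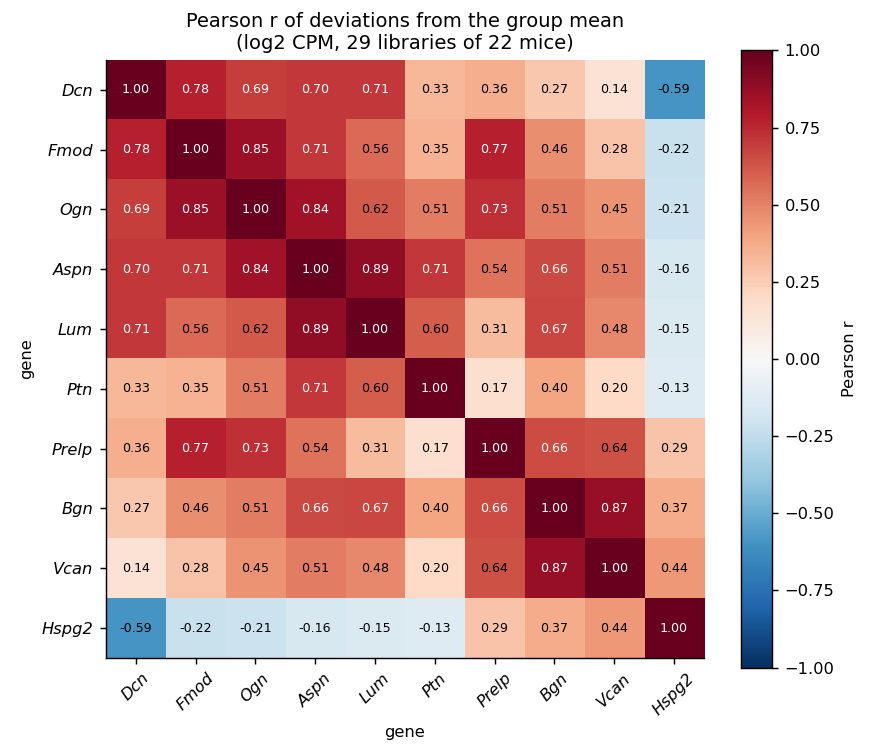
Pearson correlation (colour and printed value) of the deviations from the group mean in log2 CPM between each pair of the 10 genes, over 29 libraries of 22 mice; both axes list the genes. Values among the 7 small leucine-rich genes run from 0.27 (Dcn and Bgn) to 0.89 (Lum and Aspn), and Hspg2 is at -0.59 with Dcn.

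Within the age groups pairs of the genes varied together to different degrees. Deviations from the group mean, over 29 libraries in which the 6m mice are present 2 times and 6m mouse 2 is often high, correlated at r = 0.89 for lumican and asporin, 0.85 for fibromodulin and osteoglycin, 0.84 for osteoglycin and asporin and 0.78 for decorin and fibromodulin. Versican correlated with biglycan at r = 0.87, with Prelp at 0.64, with asporin at 0.51 and with fibromodulin at 0.28. Biglycan was also at 0.67 with lumican and 0.66 with asporin. Without 6m mouse 2 these became 0.53 and 0.51, and versican with asporin 0.29, while versican with biglycan was at 0.83 and lumican with asporin at 0.82. The genome neighbours Dcn and Lum correlated at 0.71 and Prelp and Fmod at 0.77. Perlecan was at -0.59 with decorin and between -0.22 and -0.13 with lumican, fibromodulin, osteoglycin, asporin and pleiotrophin. It was at 0.29 with Prelp, 0.37 with biglycan and 0.44 with versican. Without 6m mouse 2 it was at -0.64 with decorin and between -0.28 and -0.21 with those 5 genes. With Prelp, biglycan and versican it was then at 0.27, 0.38 and 0.46. The 24m mouse 4, kept in all these values, had the highest decorin and the lowest perlecan of its group. The first-run library of 6m mouse 4, kept too, had the lowest perlecan of its group. These are descriptions of shared variation between libraries, which also share depth and composition, without a correction for gene length and GC content.

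The 3 genes whose deviations were most like those of each of the 10 were found among 13445 others. Decorin went with Igfbp6 (r = 0.95), Pcolce2 (0.93) and Clec3b (0.93), and lumican with Sdc2 (0.96), Mfap5 (0.95) and Ctsk (0.94), where Mfap5 encodes a microfibril protein and Ctsk a collagen-degrading protease. Fibromodulin went with Ccdc3 (0.95), the tendon and cartilage matrix gene Comp (0.93) and Angptl7 (0.90), osteoglycin with Abi3bp (0.93), Lhfp (0.91) and Kera (0.89), asporin with Dpt, Serpinf1 and Matn2 (0.91 each), and Prelp with Ntn1 (0.89), Thbs2 (0.86) and Chrdl1 (0.86). Biglycan went with the heparan sulfate 6-O-endosulfatase gene Sulf2, fibronectin (Fn1) and Mrc2 (0.93 each), and versican with Edem1 (0.92), Syk (0.91) and Dab2 (0.91). Perlecan went with C230081A13Rik, Setd5 (0.95 each) and the semaphorin receptor gene Plxna1 (0.94), none of which encodes a matrix protein as far as their names are known. Pleiotrophin had weaker neighbours, Angptl1 (0.78), BC026585 (0.73) and 5930438M14 (0.73).

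Perlecan fell at 28m together with its partners in the basement membrane. All 11 genes of a list of nidogens, laminins, collagen IV chains and dystroglycan were called lower, with a median log2 fold change of -1.02, where 22.9% of all genes were called lower. Col4a2 fell from 151 ± 34.5 to 62.7 ± 28.4 CPM (-1.29, adjusted p = 0.00143), Col4a1 from 190 ± 55.8 to 81.7 ± 41.1 CPM (-1.24, adjusted p = 0.00198) and Nid1, the nidogen that links laminin to collagen IV, from 76.7 ± 25.2 to 33.7 ± 11.8 CPM (-1.21, adjusted p = 0.000872). Dag1, which encodes the laminin receptor dystroglycan of the muscle fibre membrane, fell from 221 ± 9.39 to 97.9 ± 69.9 CPM (-1.19, adjusted p = 0.0191). After the correction for length and GC content 7 of the 11 were called lower, where 15.6% of all genes were, and with the first-run 6m libraries 8 were, where 11.0% of all genes were. The 4 genes named here were among the 7, with log2 fold changes between -1.04 and -0.84. At 24m none of the 11 was called, where 0.0229% of all genes were lower, and their median was -0.32.

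**Figure D5:**
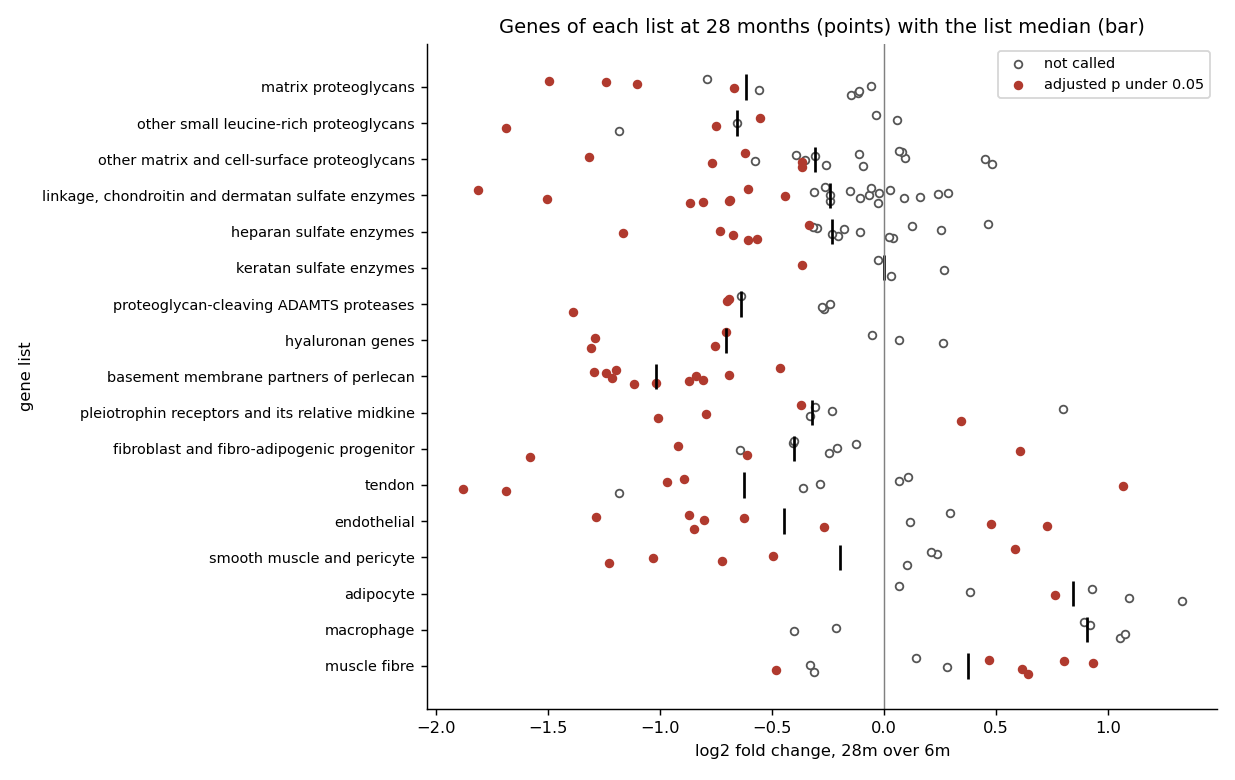
Log2 fold change at 28m (horizontal axis) of the genes of each list (vertical axis); filled points have an adjusted p under 0.05 and bars are list medians. All 11 basement membrane partners of perlecan are filled and lie below 0, with a median of -1.02, and most other lists mix filled and open points.

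Relatives of the 10 genes and enzymes that build the sugar chains of proteoglycans were lower in part. Of the other small leucine-rich proteoglycans 7 were tested and 3 were lower: Chad, or chondroadherin (-1.69, adjusted p = 0.0127), Ecm2 (-0.75, adjusted p = 0.00705) and Podn (-0.55, adjusted p = 0.0210). Of 17 other proteoglycans 5 were lower, where 22.9% of all genes were, among them the basement membrane collagens with sugar chains Col15a1 (-1.32) and Col18a1 (-0.77), the pericyte proteoglycan Cspg4 (-0.62) and glypican Gpc1 (-0.37). After the correction for length and GC content Col18a1 (-0.38), Cspg4 (-0.02) and Gpc1 (-0.17) were not past the threshold. None of the genes in these lists was called higher, where 24.3% of all genes were. With the correction 5 of the 7 and 3 of the 17 were lower, where 15.6% of all genes were. With the first-run 6m libraries 3 of the 7 and 1 of the 17 were lower, where 11.0% of all genes were.

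Among 23 enzymes of the linkage region and of chondroitin and dermatan sulfate, 8 were lower and 0 higher by edgeR, where 22.9% of all genes were lower and 24.3% higher. The largest differences were those of Xylt1, which adds the first sugar of the chain (2.57 ± 0.618 CPM at 6m and 0.737 ± 0.632 CPM at 28m, -1.81, adjusted p = 0.00288), the sulfotransferase gene Chst11 (-1.50), the epimerase-like gene Dsel (-0.87) and the xylose kinase gene Fam20b (-0.81). Of 17 genes for heparan sulfate 6 were lower, led by the N-deacetylase and N-sulfotransferase gene Ndst1 (79.6 ± 5.67 CPM and 36.0 ± 21.1 CPM, -1.16, adjusted p = 0.00770), followed by Sulf2 (-0.73), Extl3 (-0.67) and Sulf1 (-0.61). After the correction for length and GC content Sulf2 (-0.50) and Sulf1 (-0.16) were not past the threshold. With it 9 of the 23 were lower and 1 higher, and 4 of the 17 were lower and 1 higher. Of all genes 15.6% were then lower and 21.6% higher. Of 4 keratan sulfate genes 1 was lower, B4galt1 (-0.37). With the first-run 6m libraries 5 of the 23 and 4 of the 17 were lower, where 11.0% of all genes were.

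Genes that cut proteoglycans or handle hyaluronan, the partner of versican, were also lower in part, where 22.9% of all genes were lower and 24.3% higher. Of the 7 ADAMTS proteases 3 were lower, Adamts4 (-1.39), Adamts9 (-0.70) and Adamts15 (-0.69), and after that correction Adamts9 (-0.20) and Adamts15 (-0.19) were not past the threshold. Of 7 hyaluronan genes 4 were lower: the synthases Has2 (-1.31) and Has3 (-1.29), the cell-surface hyaluronidase gene Tmem2 (-0.76) and Hyal1 (-0.71). Has2 and Adamts4 were below 1 CPM on average at both ages. Among 8 receptors of pleiotrophin and its relative midkine, Lrp1 (-1.01), Ptprs (-0.79) and Nrp1 (-0.37) were lower and Ncl (0.34) higher. After the correction Lrp1 was at -0.31, Ptprs at -0.18 and Nrp1 at -0.03, none past the threshold, and Ncl was at 0.70 (adjusted p = 0.000305). With the first-run 6m libraries none of the ADAMTS genes was called. At 24m no gene of any of these lists was called, where 0.0229% of all genes were lower and 0.0611% higher.

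Markers of the cells in which these genes are mostly made moved unevenly at 28m, and their counts stand against 22.9% of all genes lower and 24.3% higher. Of 10 fibroblast markers 3 were lower, Col3a1 (-1.58), Pdgfra (-0.92) and Dpt (-0.61), and 1 higher, Ly6a (0.61), and the summed level lay between 346 and 1810 CPM at 6m (median 434 CPM) and between 228 and 742 CPM at 28m (median 310.2 CPM). Of 10 tendon markers 4 were lower, among them Col1a1 (-1.88), Chad and Cilp2 (-0.97), while the tendon transcription factor gene Scx was higher (1.07, adjusted p = 0.000718), and the sum lay between 219 and 1037 CPM at 6m (median 315 CPM) and between 131 and 423 CPM at 28m (median 184 CPM). The highest fibroblast and tendon sums at 28m were those of mouse 5, which also had the highest decorin, lumican and asporin. No marker of either list was at 0 in a group. The part of these cells in the lower levels was not tested.

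Perlecan is also a component of the vessel wall. Of 10 endothelial markers 6 were lower and 2 higher, where 22.9% of all genes were lower and 24.3% higher. Kdr (-1.29), Cdh5 (-0.87), Ptprb (-0.85) and Tek (-0.80) led. The sum lay between 555.5 and 607 CPM at 6m and between 362 and 503 CPM at 28m, without overlap. Such a separation was seen downward for 6.18% of single genes, and no share was computed for sums of 10 genes. Of 8 smooth muscle and pericyte markers 4 were lower, led by Rgs5 (-1.23), Notch3 (-1.03) and Myh11 (-0.72), and 1 higher, Tagln (0.58), with sums of 353 to 418 CPM and 221 to 364 CPM. Of 6 adipocyte markers 1 was higher, Fabp4 (0.76), and none of 6 macrophage markers was called, with median log2 fold changes of the lists of 0.85 and 0.91. The adipocyte sum lay between 162 and 196 CPM at 6m (median 180.4 CPM) and between 149 and 611 CPM at 28m (median 354 CPM), with 5 of 8 mice at 28m above all 6m mice and 2 below them. The macrophage sum lay between 55.5 and 197 CPM at 6m (median 79.8 CPM) and between 75.9 and 653 CPM at 28m (median 96.4 CPM). Of 10 muscle fibre markers 5 were higher, led by Mylpf (0.93), Tnni2 (0.80), Des (0.64) and Pvalb (0.62), and 1 was lower, and their sum lay between 206688 and 224736 CPM at 6m and between 206698 and 241529 CPM at 28m. After the correction for length and GC content Col1a1 (-1.48), Col3a1 (-1.06), Cilp2 (-0.73) and Pdgfra (-0.46) kept their direction and were not past the threshold, and Tagln (0.23), Pvalb (0.03) and Ly6a (0.01) were not past it either. Still called but nearer to 0 were Mylpf (0.38), Tnni2 (0.38), Ptprb (-0.38), Myh11 (-0.42), Notch3 (-0.66) and Kdr (-0.92), while Dpt was at -1.03. Other markers of these lists gained a call. With the correction 4 fibroblast markers were lower and 0 higher, and 2 tendon markers were lower and 1 higher. The endothelial list had 5 lower and 1 higher, the smooth muscle and pericyte list 4 and 0, and the muscle fibre list 1 and 3. Of all genes 15.6% were then lower and 21.6% higher. The part of these cells in the levels of the 10 genes was not tested.

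Without 6m mouse 2 and 28m mouse 5, the mice with the highest fibroblast and tendon sums of their groups, the number of the 10 genes called lower was also 4, where 17.8% of all genes tested were lower. Perlecan was then at -1.47 (adjusted p = 0.00283), Prelp at -1.12 (adjusted p = 0.00244), versican at -0.96 (adjusted p = 0.0128) and osteoglycin at -0.63 (adjusted p = 0.0470), a fit added after the data were seen.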

How the data were processed

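Poly-A RNA of the whole TA was sequenced in 29 libraries. The authors aligned single-end reads to mm10 with STAR 2.5.4b and deposited a table of raw counts, reads per gene, for 22537 gene symbols. Their own calls used DESeq2 1.22.2, and the strand setting of the counting is not stated. The labels and the methods give different amounts of total RNA per library. No column was left without a sample, and no pair of libraries held identical values. Total counts were 17633475 to 33499162 per library (median 24250878).

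For the analysis edgeR 4.0.16 was used under R 4.3.3. In each fit, filterByExpr removed genes with low counts and TMM set the library scales. Ages were compared within a run with glmQLFTest, and p-values were adjusted by Benjamini-Hochberg, with 0.05 as the threshold. Standard errors and 95% intervals were derived from the F test and its degrees of freedom. CPM of single mice was scaled over all 29 libraries, and log2 CPM used a prior count of 2. The difference of the age effects was tested in a model with age and run, fitted to the 29 libraries. Second libraries of a 6m mouse were known from the repeat mark of the sample titles. The correlation across genes of the deviations of both libraries of a mouse was between 0.218 and 0.814. The lowest was that of mouse 4, whose first-run library reached 0.193 with a second-run library of another mouse. For mouse 4 the pairing therefore rests on the titles. Apart from these pairs, each mouse gave 1 library, and p-values of the comparisons of ages within a run measure the spread between mice. The main fits for the difference of the age effects and for the 6m runs treated both libraries of a young mouse as separate mice. Their p-values leave out the pairing, and the mouse as a replicate block was an alternative.

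The 10 genes, the lists of related genes and the marker lists were chosen with earlier results of these data known. From each list the text names the genes called at 28m, at most the 4 with the largest change, and for each of the 10 genes the 3 most alike. Positions, exonic length and GC content came from GENCODE on GRCm38, with 20202 genes found by their symbol and 1931 by a synonym. Alternatives were DESeq2 1.42.0, limma-voom (limma 3.58.1), DESeq2 size factors, no filter, at least 10 counts in every library, a length and GC trend removed, the 6m libraries of the other run, a dispersion over all libraries, the mouse as a replicate block, and leaving out each library or mouse. The result of 1 marker list is not reported here. The scripts were tested on simulated data. Figures were drawn with matplotlib 3.10.9.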

Additional observations from a re-analysis of the deposited data

Results flagged for a closer look

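In 40 sets of values, each 1 gene in 1 age group and run, 9 held a library far above the others of its group, by Dixon's criterion at 95%, where chance marks about 1 in 20. Of the 9 values, 7 belonged to 6m mouse 2: in the second run biglycan at 104 CPM (next highest mouse 55.2 CPM), lumican at 78.7 CPM (39.2 CPM), asporin at 51.5 CPM (27.6 CPM), versican at 13.7 CPM (7.22 CPM) and pleiotrophin at 3.44 CPM (1.81 CPM), and in the first run lumican at 81.0 CPM (44.7 CPM) and asporin at 54.8 CPM (27.7 CPM). The same mouse had the highest fibroblast, tendon and macrophage marker sums of its group in both runs, so the values recurred in separately prepared libraries. The other values were decorin in 24m mouse 4, 1033 CPM with the next mouse at 442 CPM, and versican in 24m mouse 2, 14.9 CPM with the next at 6.56 CPM. The cause of these high values was not tested.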

How the results depend on the processing

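At 28m the number of the 10 genes called lower was 4, 5 with DESeq2 (16.7% of all genes lower), and 3 with first-run 6m libraries (11.0%), and none was called higher under any alternative. Leaving out each library in turn gave 3 to 5 lower, with 19.7% to 25.3% of all genes lower. Perlecan and Prelp were called in all 15 of these fits and all other alternatives, and versican in all but the length and GC trend. Over all genes, 2981 lower and 3159 higher became 1422 and 1559 with the first-run 6m libraries, and 2324 and 2496 with these but without 6m mouse 4. Values near 0 changed sign. At 28m biglycan was 0.12 with the length and GC trend removed, 0.0145 with the first-run 6m libraries and 0.0912 without 6m mouse 2 and 28m mouse 5, where lumican was 0.0340 and asporin 0.0583. Leaving out a library gave -0.25 to 0.18 for biglycan, -0.32 to 0.26 for lumican and -0.22 to 0.24 for asporin.

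At 24m no gene of the 10 was called under any alternative. The 3 lower and 8 higher genes of all became 45 and 170 with DESeq2, 1 and 3 with at least 10 counts, 16 and 30 with the second-run 6m libraries, 19 and 133 with a shared dispersion, 45 and 76 without the mice numbered 4, and 6 lower with the length and GC trend removed. Leaving out a library gave 1 to 10 lower and 3 to 20 higher, the most without 24m mouse 4. Limma-voom gave -0.0695 for fibromodulin, -0.0979 for versican and 0.0278 for pleiotrophin. The second-run 6m libraries gave -0.0452 for fibromodulin and -0.16 for versican. Without the mice numbered 4 decorin was -0.12 and fibromodulin -0.00517. Leaving out a library gave -0.17 to 0.31 for decorin, -0.15 to 0.19 for fibromodulin, -0.0617 to 0.41 for asporin, -0.40 to 0.27 for versican and -0.26 to 0.12 for pleiotrophin.

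For the difference of the effects DESeq2 called 2 genes lower. Leaving out a mouse gave 0 to 453 lower and 0 to 1204 higher, 0 to 1 of the 10, with the highest counts without 24m mouse 4, and -0.45 to 0.0548 for decorin and -0.31 to 0.0200 for asporin. The mouse as a replicate block changed no call.

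Between the 6m runs limma-voom gave 0.000872 for osteoglycin, and the length and GC trend removed gave 0.00976 for lumican, 0.12 for osteoglycin and 0.10 for asporin, or 0.00366, 0.13 and 0.11 with the mouse as a replicate block besides. Leaving out a mouse gave -0.0817 to 0.00448 for decorin, -0.0282 to 0.0114 for osteoglycin, -0.053 to 0.149 for pleiotrophin. The cause of these changes was not tested. With 7 or 8 mice a group, a change like that of osteoglycin lay within the intervals of several genes not called. Alternatives that leave out 2 libraries, or the first-run library of 6m mouse 4, were added after the data were seen.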
